A study of Rattus norvegicus with 20 samples.

Results

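The amino acid transporters of the supraoptic nucleus (SON) are described here as the genes of the SLC1, SLC3, SLC6, SLC7, SLC36, SLC38 and SLC43 carrier families that move neutral, cationic or anionic amino acids and that were measured in these punches. They were found by gene symbol, and 45 genes matched. Whether the product of each gene moves amino acids was not examined. Of these, 39 had a mean of at least 10 normalised read counts in each of the 3 deposited tables, out of 32402 genes in all and 15137 that reached the same mean. The 39 include Slc7a6os, which lies on the opposite strand to Slc7a6 and encodes no transporter, and it was called in no comparison. The rule uses no measured value other than this minimum, but the members were chosen with earlier results of these data known.

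The data were poly(A) RNA-seq libraries from SON punches of male Wistar Han rats, 5 rats in each of 4 groups, with 1 library per rat. Adult rats were 3 months and aged rats 18 months old, and each age was studied euhydrated (EH, free access to water) or dehydrated (DH, water withheld, for 2 days by the sample labels and for a longer period by the study's methods). The 3 comparisons were ageing, which sets aged EH rats against adult EH rats, and DH within the adult and within the aged rats. The libraries held between 24268398 and 30348118 reads counted on genes. A punch is a mixture of magnocellular neurons, glia, vessels and overlying meninges, so a difference in the number of cells of a type and a difference in RNA per cell cannot be told apart. Both magnocellular hormone genes were abundant, with 163773 ± 32462 normalised counts of Avp and 79666 ± 6667 of Oxt in adult EH (SD, n = 5). The values printed are read counts normalised by the authors within each table, LFC is the log2 fold change with its standard error (SE), and a gene is called where limma gave an adjusted p under 0.05 over all genes tested. P-values measure the spread between rats within a group.

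Magnocellular neurons of the SON make the secreted hormones vasopressin and oxytocin, and DH is the classic stimulus to that synthesis. Large neutral amino acids enter most cells through heteromeric carriers, in which a light chain such as Slc7a5 (LAT1) or Slc7a8 (LAT2) is held in the membrane by the heavy chain Slc3a2 (CD98). Arginine and lysine enter through the cationic carriers of the SLC7 family, and sodium-coupled carriers of the SLC1 and SLC38 families move alanine, serine, cysteine and glutamine, in the brain largely between astrocytes and neurons.

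Before the results, 6 of the 10 adult libraries stood apart from the other 14. The mitochondrial gene ND6, the only protein gene read from its strand of that genome, had 512 to 873 reads in adult EH rats 4, 5 and 6 and adult DH rats 1, 2 and 3, and 2068 to 4150 reads in the other 14 libraries, whereas ND5 had 159360 to 202798 and 171625 to 249121. Apeg3, an antisense transcript of Peg3, had 2 to 20 reads in the same 6 libraries and 113 to 233 in the rest. A transporter gene, Slc3a1, followed this split and is described below. With this split as a term of the adult DH fit, 14 of 15280 genes (0.0916%) were called between the 2 sets of adult libraries, and among the 39 members Slc3a1 was the 1 called. The split was found after seeing the data, it crosses EH and DH in the adult rats, and every aged library fell in the set of 14. What sets these libraries apart was not tested.

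In adult rats DH went with higher levels of several carriers of cationic and neutral amino acids. Of the 39 members, 10 were called (25.6%, against 12.7% of all 15280 genes tested), 9 of them higher (7.67% of all genes) and 1 lower (4.99%). The 9 were the cationic carriers Slc7a1, Slc7a3 and Slc7a14, the heavy chain Slc3a2 with its light chains Slc7a5 and Slc7a8, the neutral carrier Slc1a4, the vesicular carrier Slc6a17 and the proton-coupled carrier Slc36a1. In 8 members no adult DH rat lay within the adult EH range, against 10.9% of all genes with such separate groups. The median LFC was 0.06 over the members and -0.01 over all genes tested.

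Aged DH gave 9 calls among the 39 members (23.1%, against 7.29% of all 15346 genes tested). All 9 were higher in DH (4.05% of all genes) and none was lower (3.25%). They were Slc7a1, Slc7a3, Slc1a4, Slc7a5, Slc3a2 and Slc6a17, which were also higher in adult DH, and the sodium-coupled carriers Slc38a2 and Slc38a3 with the glycine carrier Slc6a9. In 6 members the groups did not overlap (7.05% of all genes), and the median LFC was 0.07 over the members and -0.00302 over all genes.

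**Figure D1:**
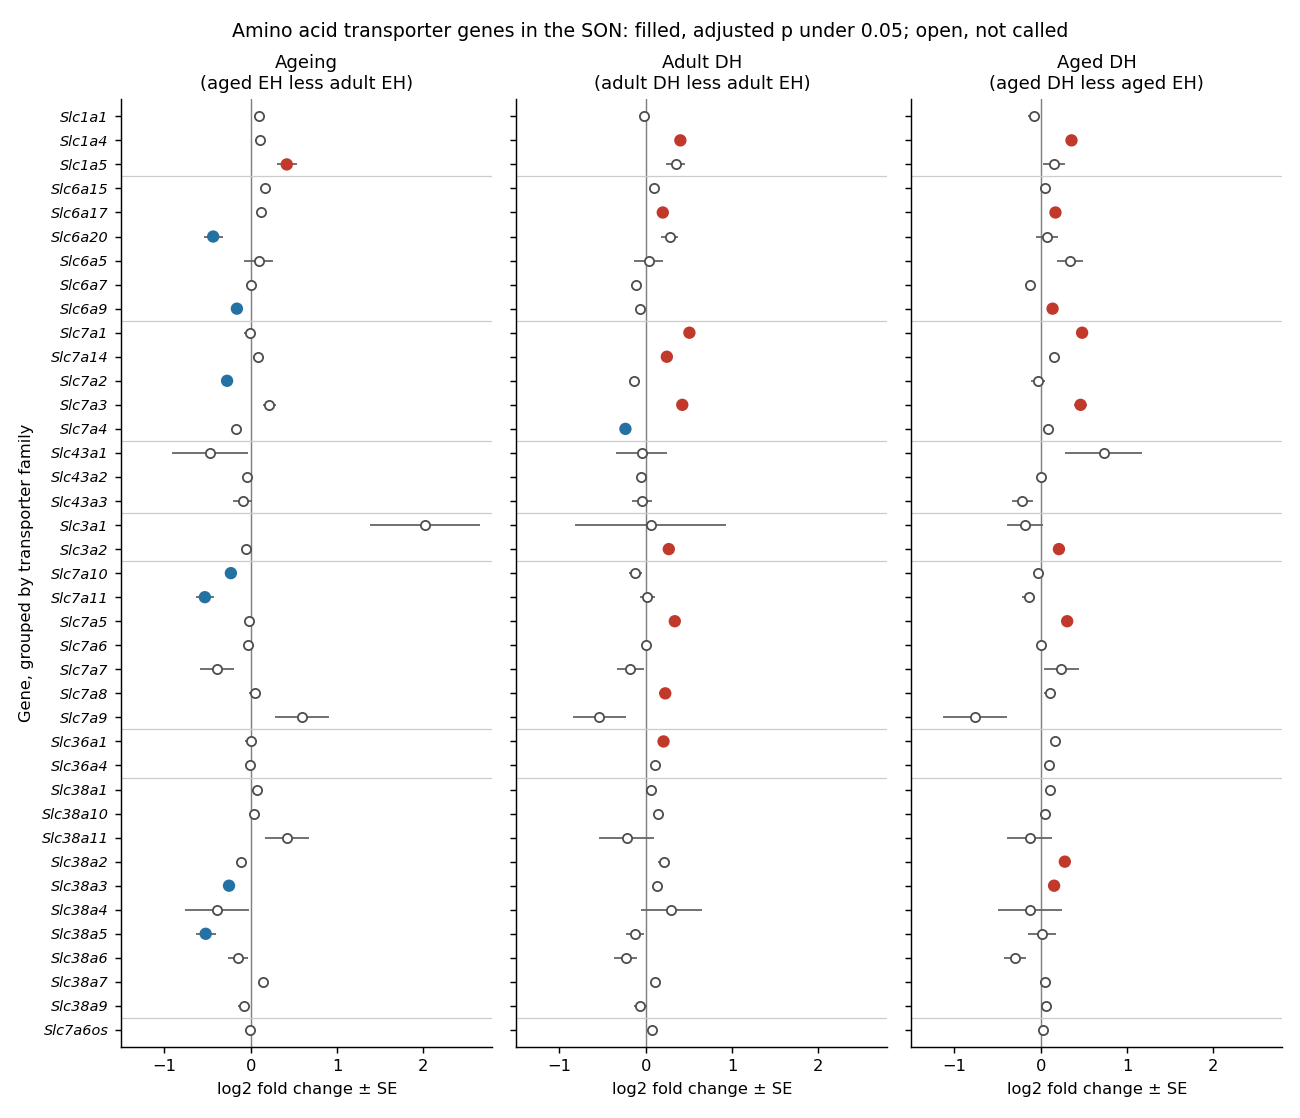
LFC with its SE for each of the 39 transporter genes in ageing, adult DH and aged DH, with 5 rats per group; filled red points are higher and filled blue points lower at an adjusted p under 0.05, open points were not called. Red points fill the middle and right panels (9 in each, with 1 blue point in adult DH), and the left panel holds 7 blue points and 1 red point.

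The 6 genes called in both DH comparisons made up 60% of the adult and 66.7% of the aged calls among the members, and each was higher in DH at both ages. Over all genes, 587 were called in both, which is 30.4% of the adult and 52.5% of the aged calls. The 2 comparisons share no rat. The promoters of these genes are shown because their transcripts rose together at both ages, and RefSeq's table of the rat assembly GRCr8 held 5 of the 6 (Slc7a3 was not in it). Each runs 5′ to 3′ from 250 bases before to 50 bases after the annotated start, and 4 are printed here. Capitals mark matches, on either strand, to TGATGNAA, a loose form of the amino acid response element bound by ATF4 with a C/EBP partner, or to TGANTCA, the AP-1 site.
Slc7a1, chr12:11664238-11664537, plus strand: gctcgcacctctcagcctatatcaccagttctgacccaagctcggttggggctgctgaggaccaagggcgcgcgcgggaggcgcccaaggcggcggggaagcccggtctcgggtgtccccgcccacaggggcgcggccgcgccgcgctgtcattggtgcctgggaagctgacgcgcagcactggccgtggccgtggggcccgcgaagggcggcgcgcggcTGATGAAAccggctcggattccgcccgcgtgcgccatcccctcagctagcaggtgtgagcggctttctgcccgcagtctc
Slc1a4, chr14:98761513-98761812, minus strand: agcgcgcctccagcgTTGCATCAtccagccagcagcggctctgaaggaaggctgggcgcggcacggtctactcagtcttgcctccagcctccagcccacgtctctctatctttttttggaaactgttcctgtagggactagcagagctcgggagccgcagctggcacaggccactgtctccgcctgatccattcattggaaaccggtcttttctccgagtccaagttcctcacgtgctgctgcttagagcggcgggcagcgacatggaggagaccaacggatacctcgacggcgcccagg
Slc7a5, chr19:66872363-66872662, minus strand: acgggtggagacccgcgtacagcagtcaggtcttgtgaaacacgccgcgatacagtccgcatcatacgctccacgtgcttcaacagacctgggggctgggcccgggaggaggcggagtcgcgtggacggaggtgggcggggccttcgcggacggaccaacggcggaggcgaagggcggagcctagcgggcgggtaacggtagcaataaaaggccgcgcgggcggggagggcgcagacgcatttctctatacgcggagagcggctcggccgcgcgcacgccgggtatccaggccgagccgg
Slc6a17, chr2:197843834-197844133, minus strand: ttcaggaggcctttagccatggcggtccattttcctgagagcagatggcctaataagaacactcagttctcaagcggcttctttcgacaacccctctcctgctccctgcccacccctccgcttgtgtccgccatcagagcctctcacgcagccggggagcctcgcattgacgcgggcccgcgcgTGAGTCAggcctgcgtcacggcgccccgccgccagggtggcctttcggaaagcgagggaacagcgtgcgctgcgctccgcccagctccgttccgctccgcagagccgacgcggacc
TGATGNAA was present in the promoters of Slc7a1, 30 bases before the start, and Slc1a4, 235 bases before it on the other strand, that is in 2 of the 5 found, in 3 of the 28 member genes with a promoter (10.7%; the third was Slc38a1) and in 3.98% of 33469 promoters of the same length. TGANTCA, which reads the same on both strands apart from its middle base, was present in that of Slc6a17 and in 5 of the 28 member genes (17.9%), against 7.33% of all promoters. The cyclic AMP response element TGACGTCA was in none of the 5 and in 1.83% of all promoters. The matches are letters in a window and say nothing of binding.

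Slc7a1 (CAT1), the widespread carrier for arginine and lysine, had the largest LFC of the 6 at both ages. Adult DH rats had 2702, 2794, 3099, 3189 and 3235 normalised counts and adult EH rats 1907, 2027, 2082, 2232 and 2327. Every DH rat was above every EH rat, with means of 3004 ± 241 and 2115 ± 166 (SD, n = 5), an LFC of 0.51 ± 0.06 and an adjusted p of 0.000122. Aged DH rats had 2769.6, 2859, 3049, 3214 and 3336 and aged EH rats 1944, 2082, 2178, 2296 and 2431. The groups again did not overlap, with means of 3046 ± 236 and 2186 ± 188, an LFC of 0.48 ± 0.06 and an adjusted p of 0.000726.

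Slc7a3 (CAT3), a cationic carrier of neurons, had 898, 980.2, 988, 1011 and 1030.4 normalised counts in adult DH and 650.4, 704, 738, 773 and 798 in adult EH. No DH rat fell within the EH range, and the LFC was 0.42 ± 0.06 (adjusted p = 0.000349). In aged rats it had 1091, 1174, 1180.4, 1271 and 1389 in DH and 808, 809, 864, 903 and 1058 in EH. The lowest aged DH rat was just above the highest aged EH rat, and the LFC was 0.46 ± 0.08 (adjusted p = 0.00296).

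Slc7a5 (LAT1), the light chain that exchanges leucine and other large neutral amino acids, had the lowest adjusted p of the members in adult DH. The 5 adult DH rats lay close together, at 2830.2, 2843, 2853, 2898 and 2926 normalised counts, and the adult EH rats at 2178, 2238, 2291, 2313 and 2346. That gap, of an LFC of 0.34 ± 0.03 (adjusted p = 6.87e-06), was wider than the range within either group. Aged DH rats were more spread, with 2599, 2700.4, 2827, 3139 and 3159.5 against 2165, 2306, 2312, 2315 and 2549.5 in aged EH. They still did not overlap, with an LFC of 0.31 ± 0.06 (adjusted p = 0.00596).

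Slc3a2 (CD98), the heavy chain that carries Slc7a5 to the membrane, rose with it. It had 5435, 5590.1, 5801, 5858 and 6148 normalised counts in adult DH and 4529, 4724, 4729.5, 4873 and 5101 in adult EH. The groups were separate, with an LFC of 0.27 ± 0.04 (adjusted p = 0.000564). In aged rats it had 5136, 5379.9, 5479, 5724 and 6135 in DH and 4538, 4751, 4769, 4886 and 5103 in EH. The lowest aged DH rat was only slightly above the highest aged EH rat, and the LFC was 0.21 ± 0.05 (adjusted p = 0.0137).

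Slc1a4 (ASCT1), a sodium-dependent carrier of alanine, serine, cysteine and threonine, had 2379, 2430.1, 2487, 2522 and 2681 normalised counts in adult DH and 1796, 1857, 1864, 1940.4 and 2006 in adult EH. All DH values were higher, with an LFC of 0.40 ± 0.04 (adjusted p = 2.39e-05). Aged DH rats had 2603, 2627, 2632, 2778 and 2966 and aged EH rats 1994, 2008, 2098, 2128 and 2416. These were also separate, with an LFC of 0.36 ± 0.05 (adjusted p = 0.00176).

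Slc6a17 (NTT4), which loads neutral amino acids into synaptic vesicles, changed least of the 6. It had 9910.4, 10211, 10298, 10622 and 10883 normalised counts in adult DH and 8864, 8904, 8949, 9256 and 9298 in adult EH, with no overlap and an LFC of 0.20 ± 0.03 (adjusted p = 0.000781). In aged DH it had 11041, 11090.3, 11745, 11780.3 and 11878, and in aged EH 9842, 9875, 9907, 10264 and 11289. A single aged EH rat lay within the DH range, and the LFC was 0.17 ± 0.04 (adjusted p = 0.0248), a call lost without any 1 of 6 rats.

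**Figure D2:**
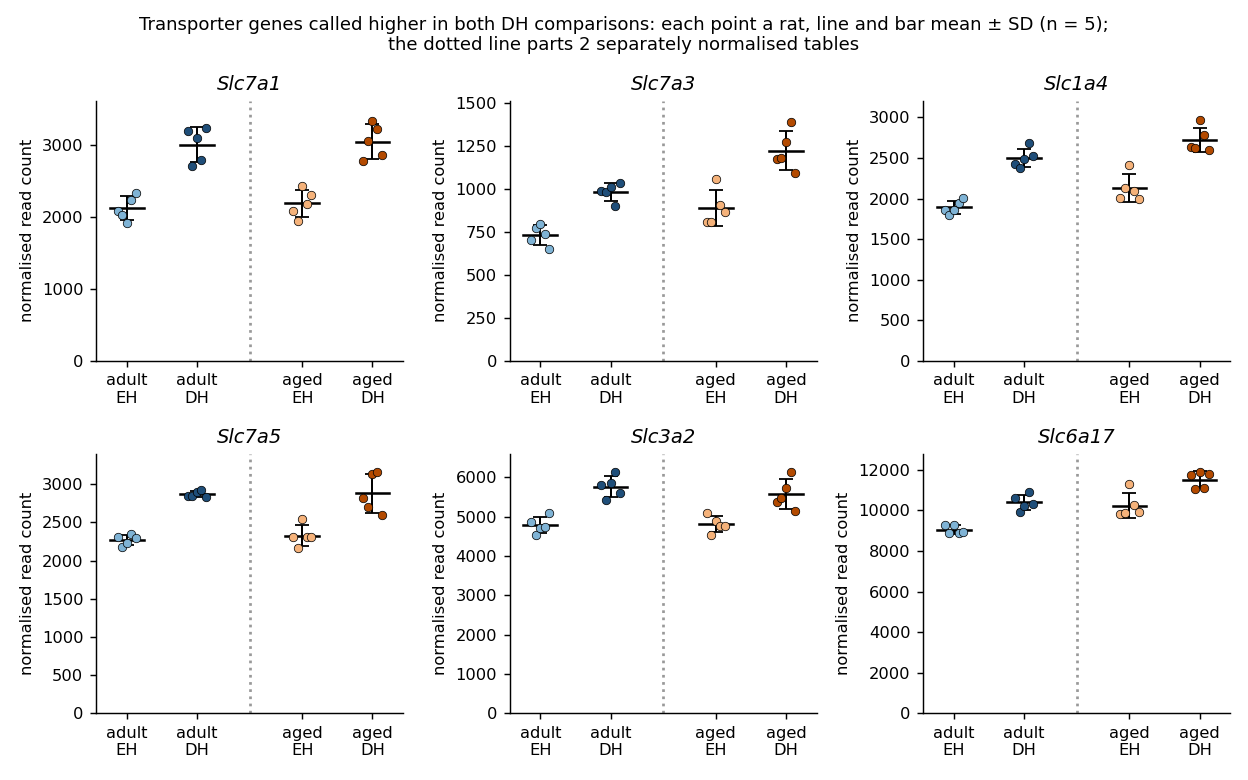
Normalised read counts of the 6 transporter genes called higher in both DH comparisons, from 0, with a point per rat and the mean ± SD of 5 rats; the dotted line separates the adult from the aged table, which were normalised separately. DH rats sit above all EH rats of their age in every panel except aged Slc6a17, where 1 aged EH rat at 11289 lies among the DH rats.

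A further 4 genes were called in adult DH alone among the DH comparisons. Slc7a14, a lysosomal relative of the cationic carriers, had 1465, 1552, 1598, 1685 and 1718 normalised counts in adult DH and 1261, 1298, 1366, 1416 and 1423 in adult EH, without overlap (LFC 0.24 ± 0.05, adjusted p = 0.00598). Slc7a8 (LAT2), the other large neutral light chain of Slc3a2, had 1632, 1647, 1877, 1983 and 2049 in DH and 1432, 1475, 1620.2, 1653 and 1655 in EH. The lower DH rats of Slc7a8 lay among the EH rats, and its call was near the threshold (LFC 0.23 ± 0.07, adjusted p = 0.0431) and was lost without any 1 of 8 rats. Slc36a1 (PAT1), which exports small neutral amino acids from lysosomes with protons, had 658, 699, 727, 728 and 739.8 in DH and 574, 599, 608, 613 and 688 in EH. Again 1 EH rat lay within the DH range (LFC 0.21 ± 0.05, adjusted p = 0.025), and the call was lost without any 1 of 6 rats.

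Slc7a4 was the member that fell in adult DH. It resembles the cationic carriers in sequence, and had 490.5, 501, 509.8, 536 and 568 normalised counts in adult DH against 580.0, 608, 612, 619.9 and 644 in adult EH. The groups did not overlap, and the LFC was -0.24 ± 0.05 (adjusted p = 0.00957). In aged rats its LFC was 0.08 ± 0.06 (adjusted p = 0.472).

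Another 3 genes were called in aged DH and not in adult DH. Slc38a2 (SNAT2), a sodium-coupled carrier whose transcript is known to respond to amino acid shortage and hypertonicity in cultured cells, had 4150.3, 4945, 5143, 5158 and 5184 normalised counts in aged DH and 3762, 3876, 4003, 4161 and 4424 in aged EH. In aged DH 4 rats were above every EH rat and 1 was among them, with an LFC of 0.28 ± 0.06 (adjusted p = 0.0129). In adult rats Slc38a2 gave 4882 ± 384 in DH and 4220.1 ± 400.4 in EH (SD, n = 5), an LFC of 0.21 ± 0.07 that just missed the threshold (adjusted p = 0.0525). The difference between the ages was not called for Slc38a2.

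Slc38a3 (SNAT3), the glutamine carrier of astrocytes, had 2135, 2252, 2298, 2319 and 2322 normalised counts in aged DH and 1904, 1973, 1993, 2146 and 2167 in aged EH. The lowest DH rat overlapped with the upper EH rats (LFC 0.15 ± 0.04, adjusted p = 0.0445). Slc6a9 (GlyT1), the glial glycine carrier, had 5885, 5897, 5949, 6027 and 6160.3 in aged DH and 5264, 5273, 5384, 5478 and 5829 in aged EH, without overlap (LFC 0.14 ± 0.03, adjusted p = 0.0263). In adult rats its LFC was -0.07 ± 0.03 (adjusted p = 0.22). The aged DH call of Slc38a3 was lost without any 1 of 7 rats and that of Slc6a9 without any 1 of 6.

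Of the members not called, 29 in adult DH had LFCs between -0.54 for Slc7a9 and 0.35 for Slc1a5, and 30 in aged DH had LFCs between -0.76 for Slc7a9 and 0.73 for Slc43a1. Slc7a9 and Slc43a1 had few reads. By families, the cationic SLC7 genes gave 4 calls of 5 in adult DH, 3 higher and Slc7a4 lower, against 12.7% of all genes called. In aged DH they gave 2 of 5, both higher, against 7.29% of all genes. The 3 SLC43 genes gave none in any comparison. Slc43a2 (LAT4), the SLC43 gene with the highest mean, had 1196 ± 75.5 in adult DH and 1241 ± 69.6 in adult EH (LFC -0.05, adjusted p = 0.539). The SLC36 gene with the highest mean, Slc36a4, had 1039 ± 50.7 and 961.9 ± 63.1 (LFC 0.11, adjusted p = 0.172). The neuronal glutamate and cysteine carrier Slc1a1 (EAAT3) had 1986 ± 198 and 2005 ± 80.5 (LFC -0.02, adjusted p = 0.882).

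Whether adult and aged rats responded to DH differently was tested directly over the 20 rats. None of the 39 members was called, and of all 15326 genes tested limma called 0 (0%), with 2 members and 1522 genes at an unadjusted p under 0.05. DESeq2 on whole reads called 55 genes (0.359%), and 2 of them were members. They were Slc6a9, with an aged less adult difference of 0.21 ± 0.05 in the LFC and an adjusted p of 0.191 by limma and 0.0257 by DESeq2, and Slc7a4, with a difference of 0.32 ± 0.08 and adjusted p-values of 0.191 and 0.0414. Each had opposite signs of the LFC at the 2 ages. For the 6 genes called at both ages the differences lay between -0.06 for Slc3a2 and 0.04 for Slc7a3. Their 95% confidence intervals all held 0, and reached from -0.22 to 0.17 for Slc7a1, from -0.18 to 0.25 for Slc7a3, from -0.17 to 0.11 for Slc7a5 and from -0.19 to 0.07 for Slc3a2. Over the 39 members the adult and aged LFCs had a Pearson's r of 0.62 and over all 15159 genes tested at both ages 0.49, and genes measured in the same libraries are not independent replicates.

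**Figure D3:**
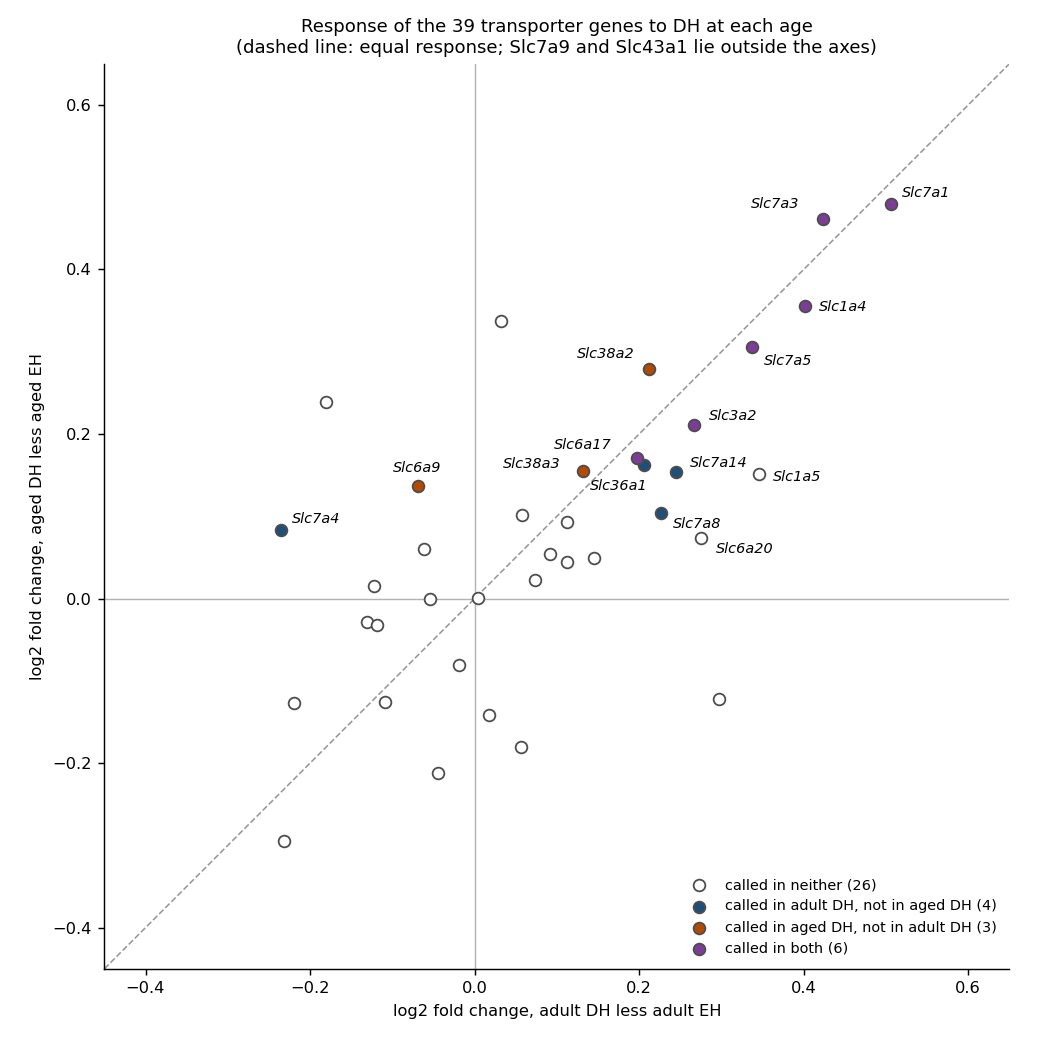
LFC of each transporter gene in adult DH (x axis) against aged DH (y axis), coloured by where it was called; 37 of 39 genes are within the axes. The 6 genes called in both lie close to the dashed line of equal response, whereas Slc6a9 and Slc7a4 lie to its upper left, with LFCs of -0.07 and -0.24 in adult DH and 0.14 and 0.08 in aged DH.

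The adult DH calls were recomputed with the split of the libraries in view. With the 2 sets as a term, 10 members were called (11.9% of all genes), 9 higher and 1 lower, with Slc38a3 (adjusted p = 0.0429) in place of Slc7a8 (adjusted p = 0.0519). In adult EH rats 4, 5 and 6 against adult DH rats 1, 2 and 3, 9 members were called (4.3% of all genes). These included Slc38a2, which was not called over the 10 rats, and lacked Slc7a4 and Slc7a8. In adult EH rats 1 and 2 against adult DH rats 4 and 5, 3 were called (1.41%), namely Slc7a1, Slc1a4 and Slc7a5. All 10 members called over the 10 rats had the same direction within each set. The sets are parts of those 10 rats, so this is not a separate check. For Slc7a1 the LFC was 0.48 and 0.55 in the 2 sets, and for Slc7a5 it was 0.32 and 0.36. The sets differed more for Slc36a1, at 0.28 and 0.10, and for Slc7a8, at 0.16 and 0.33.

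With age most of the called members were lower, and none of the 6 genes called in both DH comparisons was called. Of the 39 members, 8 were called (20.5%, against 5.99% of all 15369 genes tested), 7 lower (3.3% of all genes) and 1 higher (2.69%). The 7 were Slc7a11, Slc38a5, Slc6a20, Slc7a2, Slc38a3, Slc7a10 and Slc6a9, and the 1 was Slc1a5. In 6 members the groups did not overlap (6.38% of all genes), 5 of them called. The median LFC was -0.01 over the members and 0.000331 over all genes. Ageing and each DH comparison share their EH rats, so that values of 1 EH group enter both.

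Slc7a11 (xCT), the light chain that takes up cystine in exchange for glutamate and so feeds glutathione synthesis, fell most. The aged EH rats had 2978, 3245, 3681, 3793 and 4191 normalised counts and the adult EH rats 4449, 4739, 4785, 5345 and 6619. Every aged rat was below every adult rat, with means of 3578 ± 475 and 5187 ± 864 (SD, n = 5), an LFC of -0.53 ± 0.10 and an adjusted p of 0.00932. Its DH and EH values overlapped at both ages, with an LFC of 0.02 in adult rats (adjusted p = 0.925) and -0.14 in aged rats (adjusted p = 0.318).

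Slc38a3 and Slc38a5, glutamine carriers known from glia, were also lower. Slc38a3 had 1906, 1974, 1996, 2149 and 2180.4 normalised counts in aged EH and 2325, 2357, 2389.8, 2533 and 2539 in adult EH, without overlap (LFC -0.25 ± 0.04, adjusted p = 0.00543). Its relative Slc38a5 (SNAT5) had 146, 185, 187, 195 and 223 in aged EH and 219, 259, 269, 293 and 302 in adult EH. The highest aged rat of Slc38a5 was just above the lowest adult rat, and the LFC was -0.52 ± 0.11 (adjusted p = 0.0171).

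Slc7a10 (Asc-1), the light chain that exchanges D-serine, glycine and alanine, had 1035, 1172, 1199.7, 1206 and 1234 normalised counts in aged EH and 1312, 1321, 1347, 1364 and 1509 in adult EH, without overlap (LFC -0.23 ± 0.05, adjusted p = 0.0244). Slc6a9 (GlyT1), which clears glycine into glia, had 5265, 5278, 5392, 5486 and 5866 in aged EH and 5818, 5998, 6118, 6195 and 6359 in adult EH. Its highest aged rat lay just above the lowest adult rat (LFC -0.16 ± 0.04, adjusted p = 0.0205). The call of Slc6a9 was lost without any 1 of 3 rats and that of Slc7a10 without adult EH rat 2. The neuronal glycine carrier Slc6a5 (GlyT2) was not called (LFC 0.09, adjusted p = 0.826).

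Slc6a20, a carrier of proline and other imino acids, had 849.7, 1070.0, 1114, 1264 and 1333 normalised counts in aged EH and 1295, 1372, 1485, 1643 and 1780.0 in adult EH. The highest aged rat was above the lowest adult rat (LFC -0.44 ± 0.11, adjusted p = 0.036). Slc7a2 (CAT2), a cationic carrier, had 402, 462, 477, 498 and 519 in aged EH and 531, 534, 589.8, 594 and 597 in adult EH, without overlap (LFC -0.27 ± 0.07, adjusted p = 0.0374). The calls of Slc6a20 and Slc7a2 were each lost without any 1 of 6 rats. The other cationic carriers Slc7a1 and Slc7a3, which were higher in DH, had ageing LFCs of -0.01 (adjusted p = 0.956) and 0.22 (adjusted p = 0.118).

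Slc1a5 (ASCT2), a carrier of glutamine and other neutral amino acids, was the member called higher with age. It had 129.99, 133, 144, 146 and 185 normalised counts in aged EH and 98.3, 98.8, 110.0, 119 and 124 in adult EH. The groups did not overlap, but the call was at the threshold (LFC 0.42 ± 0.12, adjusted p = 0.0484) and was lost without any single rat except aged EH rat 6. In adult DH, Slc1a5 had 134 ± 17 against 105 ± 11 in adult EH (SD, n = 5), with an LFC of 0.35 ± 0.11 and an adjusted p of 0.0573.

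**Figure D4:**
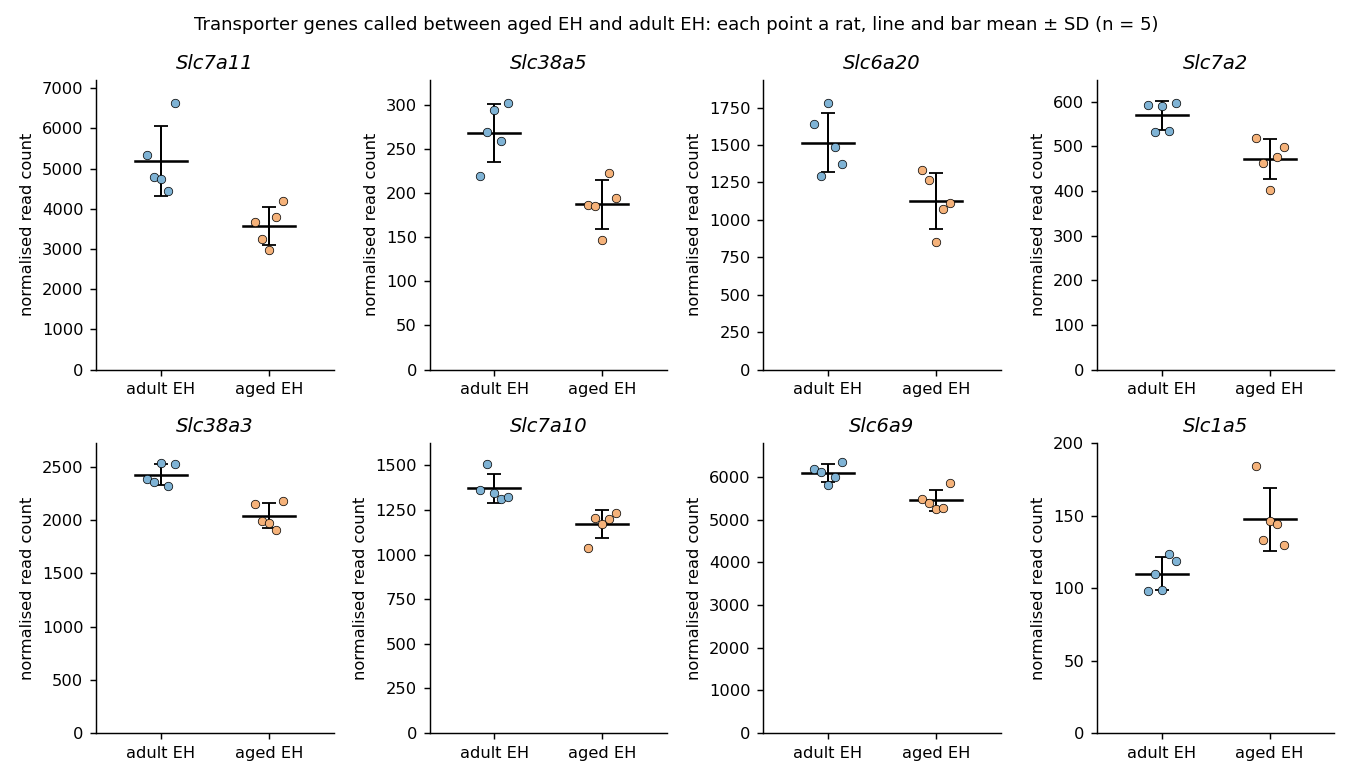
Normalised read counts, from 0, of the 8 transporter genes called between adult EH and aged EH rats, with a point per rat and the mean ± SD of 5 rats. The aged rats are lower in 7 panels, without overlap in Slc7a11, Slc7a2, Slc38a3 and Slc7a10, and higher without overlap in Slc1a5.

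The ageing calls did not hold once the split of the libraries entered the fit. With it as a term, 0 of the 39 members were called by limma, against 1.21% of all genes, and the adjusted p-values of the 8 lay between 0.0604 for Slc7a10 and 0.256 for Slc6a20. This fit sets 5 aged EH rats against the 2 adult EH rats of their own set. The LFCs were -0.51 for Slc7a11, -0.38 for Slc38a5, -0.22 for Slc38a3 and -0.30 for Slc7a10. Over all rats they were -0.53, -0.52, -0.25 and -0.23, in the same order. In these 7 rats alone 0 members were called either, against 0.958% of all genes. The LFCs there were the same as with the term, so the 2 fits are not separate checks. All 8 kept their direction, but these rats are among those in which the 8 were called. The unadjusted limma p of the 8 lay between 0.000744 for Slc7a11 (adjusted p = 0.0615) and 0.0322 for Slc38a5 (adjusted p = 0.317).

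Cell type markers moved with age beside these genes. Of 9 leptomeningeal and perivascular fibroblast markers tested, 7 were lower in aged EH (Col1a1, Col3a1, Lum, Pdgfra, Igf2, Slc22a6 and Aldh1a2) and none higher, with a median LFC of -0.71 and summed levels of 46568 to 86919 against 71628 to 122047 in adult EH, while Col1a2 was listed at 0. Of 10 oligodendrocyte markers 5 were lower, of 9 astrocyte markers Gja1 and Aqp4 were lower, and of 9 microglial markers 4 were higher. Of 6 endothelial markers Cdh5 was lower (median LFC of the 6 -0.10). Of 7 choroid plexus markers Clic6 was higher, while 5 of the 7 had negative LFCs. Over all genes tested 2.69% were called higher and 3.3% lower. The summed astrocyte level was 178382 to 211547 in aged EH and 181314 to 218130 in adult EH, so that those ranges overlapped almost wholly. The summed oligodendrocyte level was 244283 to 295998 and 274230 to 399444, and the microglial level 8595 to 9842 and 7249 to 8394. The part of these cell types in the lower Slc6a20, Slc38a5, Slc7a11 and other transporter transcripts was not tested.

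In DH the markers moved differently. Of 8 genes of magnocellular neurons, 6 were higher in adult DH (median LFC 0.86) and 4 in aged DH (median LFC 0.47), 5 having been higher with age as well (median LFC 0.35), and none was lower in any comparison. Their summed level was 336973 to 446530 in adult DH and 224949 to 314791 in adult EH, and 356950 to 568856 in aged DH and 288493 to 409518 in aged EH. Of 6 endothelial markers tested, the glucose carrier Slc2a1 was higher in both (LFC 0.29 and 0.26), and the other 5 were not called. At each age 5 of the 6 had positive LFCs, with medians of 0.09 in adult DH and 0.13 in aged DH. Their summed level was 10492 to 12243 in adult DH and 10335 to 10926 in adult EH. In aged rats it was 10998 to 12465 in DH and 10319 to 10882 in EH, without overlap. In aged DH, 4 of 8 markers of cortical glutamatergic neurons were lower, with summed levels of 5564 to 7190 in aged DH and 8177 to 12031 in aged EH. Among glial genes, Cnp was lower in adult DH, and Sox9 was lower and Mobp and Olig1 were higher in aged DH. No microglial or fibroblast marker was called in either. Of 9 fibroblast markers, 8 had positive LFCs in adult DH (median 0.11) and 3 in aged DH (median -0.06). Of 10 oligodendrocyte markers, 4 had positive LFCs in adult DH (median -0.12) and all 10 in aged DH (median 0.12). Of 9 astrocyte markers, 1 was positive in adult DH and 4 in aged DH, and of 9 microglial markers 2 and 3. Of 7 choroid plexus markers Clic6 was lower in adult DH. Over all genes 7.67% were higher and 4.99% lower in adult DH, and 4.05% and 3.25% in aged DH. The part of these markers in the transporter results was not tested.

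Slc3a1 (rBAT), the heavy chain of the cystine and cationic carrier Slc7a9, was the member that followed the split of the libraries. In adult EH it had 74.1 and 60.9 normalised counts in rats 1 and 2 and 4.05 to 9.27 in rats 4, 5 and 6, and in adult DH 51.6 and 70.3 in rats 4 and 5 and 2.9 to 15.7 in rats 1, 2 and 3. All 10 aged rats had 42.7 to 100.5. As whole reads this was 3 to 16 in the 6 libraries and 44 to 109 in the other 14. RefSeq places Slc3a1 and Prepl on opposite strands with overlapping ends, and Prepl had 9571 to 14396 reads in every library with no such split. Reads from where the 2 genes overlap cannot be assigned with certainty, so that the printed values of Slc3a1 are uncertain as a measure of its transcript, and whether reads of the Prepl strand entered them to a different extent in the 2 sets of libraries was not tested. The ageing LFC of Slc3a1 was 2.02 ± 0.64 (adjusted p = 0.0825), the highest of the members, and it rests on the 3 adult EH rats of the 6 libraries, since the 2 others lay within the aged range of 56.4 to 100.5 and against these 2 alone the LFC was 0.10 ± 0.24.

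**Figure D5:**
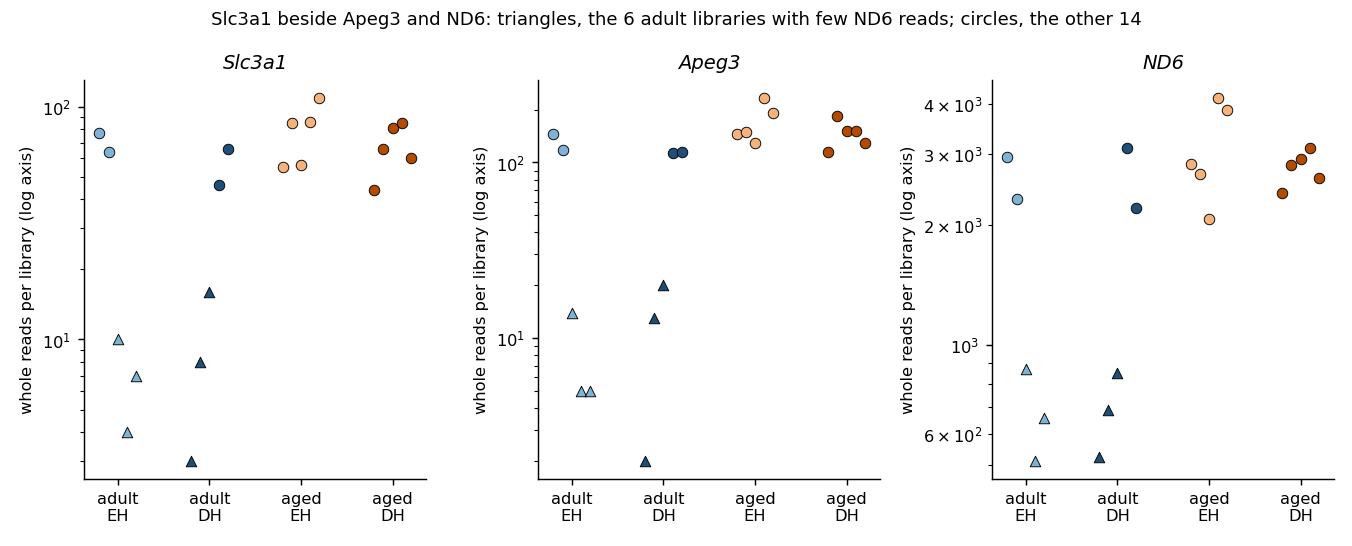
Whole reads per library, on log axes, of Slc3a1, of the antisense transcript Apeg3 and of the mitochondrial gene ND6, by group; triangles mark the 6 adult libraries with few ND6 reads and circles the other 14. Slc3a1 has 3 to 16 reads in the triangles and 44 to 109 in the circles, at both water states of the adult rats.

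Other genes that handle amino acids were read from lists alongside the transporters. Of 40 enzymes of amino acid metabolism tested, 7 were higher and 3 lower in adult DH (7.67% and 4.99% of all genes), and 7 higher and 0 lower in aged DH (4.05% and 3.25%). Psph, which completes serine synthesis, Shmt2, the mitochondrial serine hydroxymethyltransferase, Asns, the asparagine synthetase, Arg1, an arginase, and Glul, the glutamine synthetase of astrocytes, were called higher at both ages. Shmt2 had 1238 ± 62.98 in adult DH and 874.5 ± 36.8 in adult EH (LFC 0.50, adjusted p = 9.41e-06), and 1433 ± 156 and 1052 ± 64.6 in aged rats (LFC 0.44, adjusted p = 0.00241). Asns had LFCs of 0.34 and 0.31, Psph of 0.39 and 0.49, Arg1 of 0.48 and 0.42 and Glul of 0.35 and 0.34. The other 2 raised in adult DH were Pycr1, of proline synthesis (LFC 0.68, adjusted p = 0.000268), and Gpt2, and those raised in aged DH were Bcat1 and Got1, while Bckdha and Glud1 were among those lower in adult DH. The median LFC of the list was 0.00139 in adult DH and 0.04 in aged DH, against -0.01 and -0.00302 over all genes. With age, Asns, Shmt2 and Ass1 were called higher and Glud1 lower.

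Of 11 plasma membrane carriers for glutamate, GABA, taurine and other organic solutes outside the 39, 3 were called, all in adult DH. There 2 were higher (7.67% of all genes) and 1 lower (4.99%). Slc6a12, which takes up the osmolyte betaine and GABA, rose from 55.5 ± 12.0 to 88.3 ± 13.2 normalised counts (LFC 0.67, adjusted p = 0.0154), and its relative Slc6a13 from 1643 ± 287 to 2158 ± 285 (LFC 0.40, adjusted p = 0.0331). The taurine carrier Slc6a6 fell from 973 ± 50.5 to 849.6 ± 69.5 (LFC -0.20, adjusted p = 0.0424). None of the 11 was called in ageing or aged DH. In ageing all 11 had negative LFCs, with a median of -0.11 against 0.000331 over all genes. In aged DH 7 were positive and 4 negative, with a median of 0.03. Of 6 vesicular carriers only Slc17a7, one of the cortical markers above, was called (aged DH, LFC -1.92, adjusted p = 0.00224), and of 13 mitochondrial carriers only Slc25a39 (aged DH, LFC 0.22, adjusted p = 0.011). None of 7 lysosomal carriers outside the 39 was called in the 3 comparisons. Among lysosomal members, Slc7a14 and Slc36a1 were called higher in adult DH, as given above, and Slc38a9 was not called.

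Of 31 genes that sense amino acids for mTORC1, 2 were higher and 2 lower in adult DH, 1 higher and 2 lower in aged DH and 1 higher in ageing. These counts are near the shares over all genes, of 7.67% higher and 4.99% lower in adult DH and 4.05% and 3.25% in aged DH. Sec13, a subunit shared by GATOR2 and the vesicle coat, was higher at both ages of DH (LFC 0.18 and 0.21, adjusted p = 0.0107 and 0.0194). Nprl2, a subunit of the inhibitor GATOR1, was lower at both (LFC -0.20 and -0.17, adjusted p = 0.0199 and 0.0273). Rheb, which activates mTORC1, was called higher in adult DH (LFC 0.14, adjusted p = 0.00627).

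The minimum of 10 counts left out 6 matching genes. Slc7a12 had no counts, Slc7a13, Slc36a2 and Slc36a3 had means under 1 in every table, and Slc38a8 had means of 3.64 to 3.98. Slc7a15 had means of 10.1 and 12.7 in the ageing and aged DH tables and 6.33 in the adult DH table. Just inside were Slc43a1, with means of 10.04 to 11.3, Slc38a11, with 10.1 to 14.5, Slc7a9, with 10.6 to 17.1, and Slc38a4, with 10.9 to 16.5.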

How the data were processed

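Poly(A) RNA from SON punches of 20 rats was sequenced by the authors as stranded paired-end libraries, aligned to the Rn6 assembly with STAR and counted per gene with featureCounts, as given in the study's methods and the submitters' processing notes. The signal in the 30 per-sample columns of the 3 deposited tables is what the authors obtained by dividing each read count by a DESeq2 size factor, set per library and per table. The authors' mean, fold change and p-value columns were not used, and 0 per-sample columns were left out. Every value was a whole multiple of its library's step, within 0.1 read, so reads were also recovered. Levels in different tables carry separate scalings.

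Where the mean over a fit's libraries was 10 or more, a gene was tested on log2(value + 1), which understates changes of low genes, with limma 3.58.1 in R 4.3.3 with a mean trend. Tests were two-sided, and p-values were adjusted by the Benjamini-Hochberg method over every gene tested, at the threshold of 0.05 that the study used. Checks used edgeR 4.0.16 and DESeq2 1.42.0 on the recovered reads, TMM over 20 libraries and the library split, all chosen after seeing the data except edgeR and DESeq2 for adult DH, and other settings of the pseudocount, filter, trend, scaling, LFC minimum, replicate block and each rat left out. The fit was tested on simulated counts. The members and gene lists were chosen with earlier results of these data known. Every called member is named with its values, and in each family the gene with the highest mean. Numbers in the labels were not taken to pair rats in the main fits. Promoters are RefSeq's for GRCr8, with 28 of 39 genes matched, and no position on Rn6 is given. Scripts used Python with matplotlib for figures.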

Additional observations from a re-analysis of the deposited data

Results flagged for a closer look

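Each group of 5 rats behind a called transporter gene was examined for a rat set apart from the rest, by the gap to its nearest neighbour as a share of the group's range, with a limit of 0.71. Of 54 groups 2 passed, and chance gives about 1 in 20, or 2.7. Slc7a10 in adult EH rat 2 was 1509 normalised counts, with the other 4 adult EH rats at 1312 to 1364. Without this rat the ageing LFC of Slc7a10 was -0.19 and its adjusted p 0.0537. Slc38a2 in aged DH rat 3 was 4150.3, with the other 4 aged DH rats at 4945 to 5184. Without it the LFC of Slc38a2 in aged DH was 0.34 (adjusted p = 0.0017).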

How the results depend on the processing

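Over the 27 calls of a transporter gene in a comparison and the differences between the ages of Slc6a9 and Slc7a4, all 649 LFC values recomputed under other settings kept their direction, 96 lost significance, and 12 calls held under every setting other than the LFC minimum. Requiring an absolute LFC of at least 0.5 left 2 members in ageing (Slc7a11 and Slc38a5), 1 in adult DH (Slc7a1), 0 in aged DH and 0 in both. Without the mean trend of limma, 3 members were called in ageing and 4 in aged DH, and over all genes 516 in ageing and 671 in aged DH. The library split as a term left 0 in ageing, where 2 adult rats remain in the set of the aged rats. DESeq2 called 2 members for the difference between the ages. Scaling by library totals gave 0 higher and 8 lower members in ageing, with 302 higher and 747 lower genes overall against 414 and 507, and in adult DH 890 and 1161 against 1172 and 762.

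Leaving out 1 rat gave 4 to 8 members in ageing, 8 to 10 in adult DH, 6 to 9 in aged DH and 0 for the difference between the ages. In ageing 4 were called without aged EH rat 5 and 5 without each of aged EH rat 4 and adult EH rats 1, 4 and 6. Lost calls in ageing were those of Slc1a5 (without any rat except aged EH rat 6), Slc6a20 (without aged EH rats 4, 5 or 6 or adult EH rats 1, 4 or 5), Slc7a2 (aged EH 2, 4 or 5, adult EH 1, 4 or 6), Slc6a9 (aged EH 5, adult EH 1 or 6) and Slc7a10 (adult EH 2). In adult DH they were those of Slc36a1 (adult EH 2, 5 or 6, adult DH 2, 3 or 5) and Slc7a8 (any adult EH rat, adult DH 3, 4 or 5), and in aged DH those of Slc38a3 (aged EH 2, 4 or 5, aged DH 1, 2, 3 or 5), Slc6a9 (aged EH 2, 4 or 5, aged DH 1, 2 or 5) and Slc6a17 (aged EH 1, 2, 5 or 6, aged DH 1 or 3). The cause was not tested. Genes called in both DH comparisons were not recounted with rats left out.

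A replicate block by rat number called 6 members in ageing, 8 in adult DH, 6 in aged DH, 5 in both and 0 for the difference between the ages. The deviations of rats with the same number from their group means had correlations of -0.0825 to 0.162. The labels do not say whether such rats share more than a number, and these correlations cannot settle it. Depth limits the values of Slc43a1, Slc38a11, Slc38a4, Slc7a9 and Slc3a1, which had few reads.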
